A study of Saccharomyces cerevisiae with 6 samples.

Results

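The genes described here make and take up pyrimidines in the yeast Saccharomyces cerevisiae: URA1, URA2, URA3, URA4, URA5, URA6, URA7, URA8, URA10 and the uracil permease gene FUR4. They were found by the systematic names of the array's gene probes, and each of the 10 genes had 1 probe among 6256. RNA was compared between cells labelled as a PHO80 deletion (3 arrays) and as wild type (3 arrays). Both groups were in the haploid laboratory strain BY4741 and were sampled after 6 h of fermentation in 80 g/l xylose. The product of PHO80 is a cyclin that, with the kinase Pho85, restrains the phosphate-response activator Pho4. BY4741, which both groups share, carries deletions of the marker genes HIS3, LEU2, MET17 and URA3. The labels name no plasmid and no marker used for the deletion.

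Yeast builds UMP from glutamine, bicarbonate and aspartate in a chain of enzymes encoded by URA2, URA4, URA1, the paralogs URA5 and URA10, and URA3. URA6 then adds a phosphate to UMP, and the CTP synthases URA7 and URA8 turn UTP into CTP. The transcription factor Ppr1 is known to activate URA1, URA3, URA4 and URA10 when pathway intermediates build up, and imported uracil bypasses the chain. URA3 is also the most used selectable marker of yeast genetics, because cells without it need uracil or uridine to grow.

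Each array was hybridised in 1 colour (Cy3) and carried 7 spots per gene probe. A log2 signal is the mean log2 processed intensity of a probe's spots minus the log2 of the array's 75th percentile, so 0 means a signal at that percentile. The 75th percentile lay between 2404 and 5011 on the deletion arrays and between 2493 and 2862 on the wild-type arrays. In both strains the median difference between arrays 1 and 3 was below spot noise. The median squared difference over spot variance was 0.412 in the deletion strain and 0.435 in wild type, against 0.484 for spot noise alone. Arrays 1 and 3 were averaged, which left 2 samples per strain. The median is over 5664 probes and does not hold for every gene. URA3 read 6.11 and 5.90 on deletion arrays 1 and 3, with spot SDs of 0.048 and 0.036. Averaging leaves that difference out of its SE. Deletion array 2 stood far from its companions (88.6 and 94.8), and wild-type array 2 lay close to its own (0.634 and 0.669). Nothing states that replicates came from separate cultures, so SE and p-values measure the spread between these samples. The 3 arrays of a strain shared a slide and scan that held no array of the other, and effects of slide, scan and strain cannot be told apart. RNA came from whole cultures, and a change in every cell cannot be told apart from a change in the share of cells expressing a gene.

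The PHO80 probe gave log2 signals of -9.41, -9.85 and -9.96 on the deletion arrays, none well above background, and -2.93, -2.83 and -2.86 on the wild-type arrays. The deletion strain was thus at least 27.4-fold lower for PHO80, counting each dim array at no less than its lowest signal well above background. This bound was not itself tested. The fit on the signals as read gave a log2 fold change of -6.91 (limma, adjusted p = 0.00153). HIS3, LEU2 and MET17 were not well above background on any array of either strain. The URA3 probe was well above background on all 6 arrays, although BY4741 lacks the gene. All 6 genes specific to mating type a were also above background on all 6 arrays. Of 4 genes specific to mating type alpha, STE3 and SAG1 were above background on all arrays, MF(ALPHA)1 on the 3 wild-type arrays only and MF(ALPHA)2 on none.

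All 10 pyrimidine genes were well above background on all 6 arrays, and all 10 passed the limma test at an adjusted p of 0.05. URA2, URA4, URA10, URA3, URA6 and URA8 were higher in the deletion strain, and URA1, URA5, URA7 and FUR4 were lower. On each of the 10 genes the 3 deletion arrays lay wholly outside the range of the 3 wild-type arrays. These counts stand against a broad background: 53.8% of the 5863 genes tested passed (19.2% higher, 34.6% lower), and on 82.0% the strains did not overlap (31.1% higher, 50.9% lower). Of the 10 genes, 9 passed and changed at least 2-fold, 5 of them higher and 4 lower, against 35.2% of all genes tested (11.2% higher, 24.1% lower). Their median log2 fold change was 0.86, and that of all genes tested was -0.28. Spots of a member on an array agreed within an SD of 0.022 to 0.207 (median 0.064, over 6 or 7 spots).

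**Figure D1:**
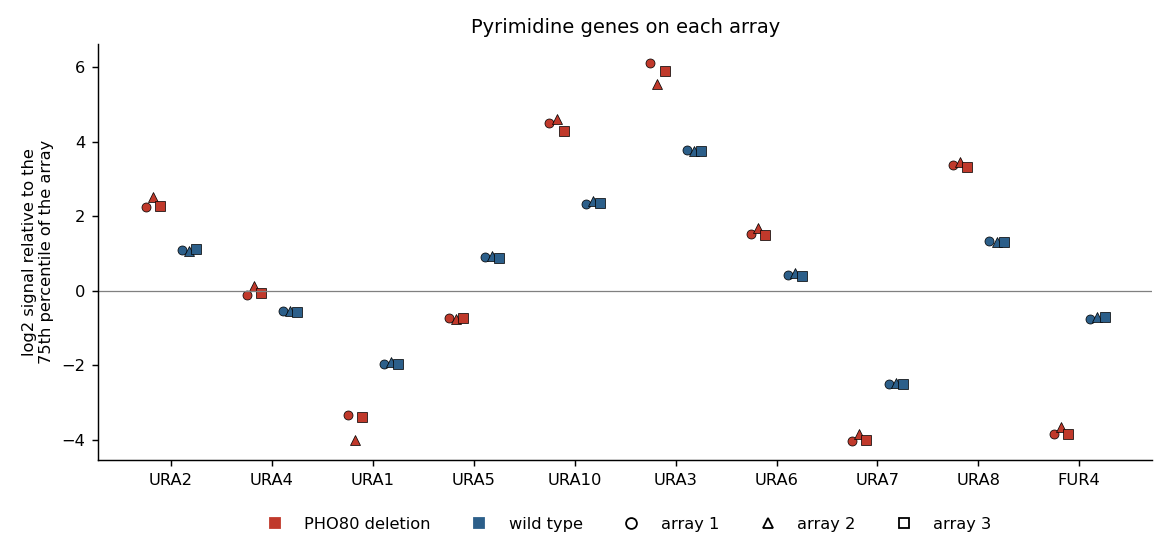
Log2 signal (vertical axis, 0 at the 75th percentile of the array) of the 10 pyrimidine genes in pathway order, with 3 PHO80 deletion arrays (red, left) and 3 wild-type arrays (blue, right) per gene; shapes mark array numbers. The strains do not overlap on any of the 10 genes, and the deletion arrays of URA3 and URA1 spread most, with array 2 lowest in both. Signals of different probes are not on a common scale.

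The pathway opens with URA2, which encodes the enzyme that makes carbamoyl phosphate and joins it to aspartate and that UTP inhibits. URA2 read 2.25, 2.51 and 2.27 on the deletion arrays and 1.08, 1.08 and 1.11 on the wild-type arrays. It rose by 1.30 ± 0.14 on the log2 scale (SE, adjusted p = 0.00528, limma), or 2.46-fold.

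URA4 encodes dihydroorotase, the next enzyme. Its signals were -0.11, 0.12 and -0.05 in the deletion strain, against -0.54, -0.53 and -0.58 in wild type. With a rise of 0.57 ± 0.13 (adjusted p = 0.0265, limma) it had the smallest difference of the 10 genes. This was the single rise among them that lost its call when wild-type array 2 was left out (0.58) or the wild-type arrays were treated as a single sample (0.57). Both settings leave 1 wild-type sample and are nearly the same fit, with the spread taken from the deletion arrays alone.

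URA1, the gene of dihydroorotate dehydrogenase, fell, whereas URA4, the gene of the step before it, rose. It read -3.34, -4.01 and -3.39 on the deletion arrays and -1.97, -1.91 and -1.97 on the wild-type arrays. The deletion arrays were all below wild type, with array 2 lower than the mean of arrays 1 and 3 (a difference of -0.65), the largest such shift of the 10 genes. The log2 fold change was -1.75 ± 0.26 (adjusted p = 0.0102, limma), or 0.297 times the wild-type signal, and it was -1.07 (adjusted p = 0.0116) with quantile normalization.

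The next step, orotate phosphoribosyltransferase, is encoded by a pair of paralogs whose signals moved in opposite directions. URA5, which encodes the major isozyme, read -0.74, -0.75 and -0.73 in the deletion strain and 0.91, 0.92 and 0.89 in wild type. URA10, which encodes the minor isozyme, read 4.49, 4.60 and 4.29 in the deletion strain and 2.33, 2.42 and 2.35 in wild type. URA5 thus fell to 0.318 times its wild-type signal (log2 fold change -1.65 ± 0.10, adjusted p = 0.00265, limma), and it was the steadiest of the 10 genes within the deletion strain. URA10 rose 4.34-fold (2.12 ± 0.14, adjusted p = 0.00288, limma). Counted from each gene's own wild-type mean, URA10 stood above URA5 by 3.77, 3.88 and 3.56 log2 units on the 3 deletion arrays.

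URA3 encodes orotidine-5'-phosphate decarboxylase, the enzyme that yields UMP. Its mean processed intensities were 232832, 112458 and 298679 on the deletion arrays and 38239, 38178 and 33531 on the wild-type arrays. As log2 signals these were 6.11, 5.55 and 5.90 in the deletion strain, against 3.79, 3.74 and 3.75 in wild type. The strains were far apart, and deletion array 2 was again the low one. URA3 rose by 2.02 ± 0.21 (adjusted p = 0.00497, limma), or 4.07-fold, which placed it above 97.6% of all genes tested. The rise was 2.33 with each array centred on its median and 1.61 with quantile normalization (adjusted p = 0.00398 and 0.0167). What produced the RNA that bound this probe in a background without the gene was not tested.

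URA6 encodes the kinase that turns UMP into UDP. It read 1.52, 1.68 and 1.502 on the deletion arrays and 0.43, 0.49 and 0.41 on the wild-type arrays, a rise of 1.14 ± 0.12 (adjusted p = 0.00523, limma).

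CTP synthase is the other step with a pair of paralogs, and these too moved apart. URA7, which encodes the major isozyme, read -4.05, -3.84 and -4.01 in the deletion strain and -2.51, -2.49 and -2.49 in wild type. URA8, the gene of the minor isozyme, read 3.37, 3.46 and 3.33 in the deletion strain and 1.32, 1.32 and 1.30 in wild type. URA7 fell to 0.369 times its wild-type signal (-1.44 ± 0.14, adjusted p = 0.0046, limma). URA8 rose 4.27-fold (2.09 ± 0.11, adjusted p = 0.00237, limma). From their own wild-type means URA8 stood above URA7 by 3.61, 3.49 and 3.54 log2 units on the deletion arrays. The fall of URA7 did not pass with quantile normalization (-0.64, adjusted p = 0.051). Members of both pairs share sequence, and how far each probe binds the transcript of the paralog was not tested.

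FUR4, the uracil permease gene, had the largest difference of the 10. It read -3.85, -3.66 and -3.86 on the deletion arrays and -0.76, -0.72 and -0.71 on the wild-type arrays. The signal fell to 0.122 times that of wild type (-3.03 ± 0.13, adjusted p = 0.00233, limma), and 1.33% of all genes tested had a lower fold change.

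**Figure D2:**
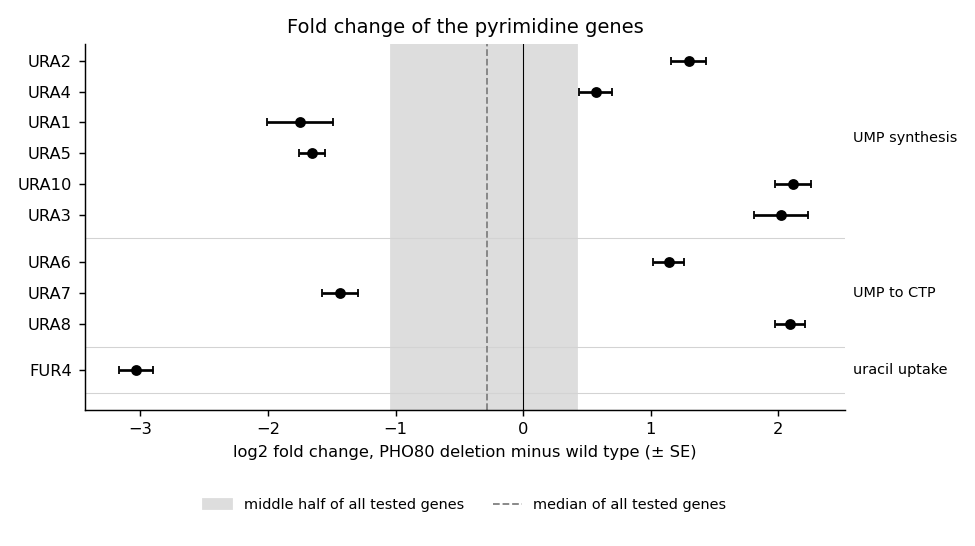
Log2 fold change, PHO80 deletion minus wild type, with its SE (limma, 2 samples per strain) for the 10 pyrimidine genes grouped by step; filled points passed at an adjusted p of 0.05. The grey band runs from the 25th to the 75th percentile of all genes tested (-1.03 to 0.43) and the dashed line marks their median (-0.28). All 10 points lie outside the band, 6 to its right and 4 to its left.

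URA3 was set against the other 9 genes of the pathway by its change alone, since signals of different probes have no common scale. Counted from each gene's wild-type mean, URA3 stood at 2.36, 1.79 and 2.14 on deletion arrays 1, 2 and 3. The median of the other 9 stood at 0.43, 0.67 and 0.50 on the same arrays. URA3 was thus above that median on every deletion array, by 1.93, 1.12 and 1.65. It was not above all of them. The highest of the other 9 was URA10 on arrays 1 and 2 and URA8 on array 3, and URA3 lay 0.24 above it on array 1, 0.42 below it on array 2 (a difference of -0.42) and 0.13 above it on array 3. By fitted fold change URA3 came behind URA10 and URA8, and the differences among these 3 (2.02, 2.12 and 2.09) were smaller than the SE of URA3. That order depended on the setting. Without deletion array 2 URA3 came first (2.25, against 2.01 for URA10 and 2.04 for URA8). With 6 separate arrays the 3 genes stood at 2.09, 2.10 and 2.08. On the wild-type arrays URA3 differed from the median of the other 9 by 0.05, -0.03 and 0.02. Small values were built in there, because each gene was counted from its own wild-type mean. They do not show that URA3 was like its pathway in wild type.

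Within the deletion strain URA3 did not follow most of its pathway. On deletion array 2 it was lower than the mean of arrays 1 and 3 (a difference of -0.46), as was URA1 (-0.65), whereas 7 of the 10 genes were higher there, by 0.11 (URA8) to 0.26 (URA2). URA5 was level, at -0.01, and so was the median of all genes tested, at 0.02. In wild type array 2 departed from arrays 1 and 3 by at most 0.08 on any of the 10 genes.

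Likeness to URA3 was taken as the root mean square difference between the deviations of a probe from its own mean over the 6 arrays and those of URA3, over 5663 other probes above background on all arrays. The 5 nearest were PHM8 (0.047), QRI7 (0.062), YPC1 (0.076), PYK2 (0.082) and YDL129W (0.084). PHM8 encodes a nucleotidase of the phosphate regulon, QRI7 a mitochondrial tRNA modification protein, YPC1 a ceramidase and PYK2 a pyruvate kinase isozyme. Their log2 fold changes ran from 2.02 (QRI7) to 2.12 (YPC1). Within the pathway URA8 ranked 39 and URA10 ranked 61 by this measure, URA2, URA6 and URA4 ranked 378, 444 and 1179, and the 4 genes that fell ranked between 4897 and 5620. XKS1, the xylulose kinase gene, ranked 146 (0.336). It had the array order of URA3 in the deletion strain (6.16, 5.62 and 5.87) but a larger rise (2.70 ± 0.19, adjusted p = 0.00312, limma) from a signal of 3.12 on each wild-type array. The measure is a description over 6 arrays and is dominated by the difference between strains. Arrays 1 and 3 of a strain were alike on the median gene. URA3 (6.11 and 5.90) and XKS1 (6.16 and 5.87) were lower on deletion array 3 than on deletion array 1.

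**Figure D3:**
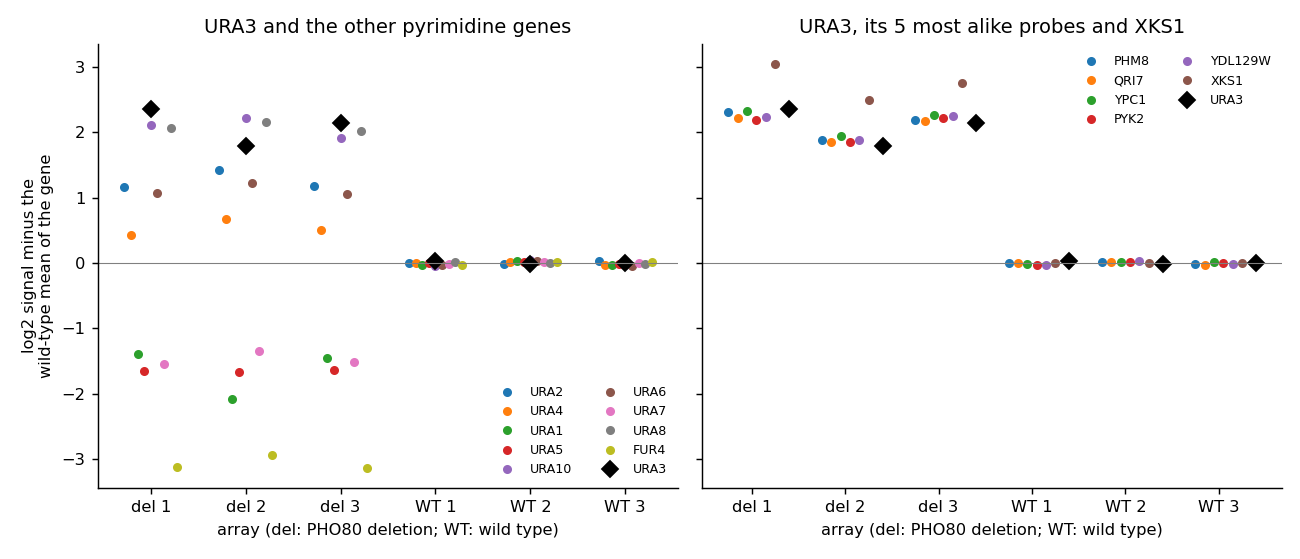
Log2 signal minus the gene's wild-type mean (vertical axis) on each array, PHO80 deletion (del) left of wild type (WT). The left panel shows URA3 (black diamonds) with the other 9 pyrimidine genes, and the right panel shows it with its 5 most alike probes and XKS1. URA3 lies at 2.36, 1.79 and 2.14 on the deletion arrays, dipping on array 2 where URA10 and URA8 do not. The 5 alike probes were chosen on these same arrays.

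The genes beside URA3 on the chromosome in the RefSeq annotation, GEA2 and TIM9, did not follow it. GEA2, which encodes a Golgi exchange factor, read -2.43, -2.72 and -2.46 in the deletion strain and -2.41, -2.35 and -2.44 in wild type (log2 fold change -0.20 ± 0.15, adjusted p = 0.332, limma). The strains overlapped, and the sign of GEA2 turned with median centring (0.11) and quantile normalization (0.42, adjusted p = 0.0407). TIM9, a gene of mitochondrial protein import, fell by 1.82 on the log2 scale (SE 0.14, adjusted p = 0.00327, limma). Both had signals well above background on all arrays.

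Genes around the pathway were taken from lists of 27 genes in all, every one of which was above background on all arrays and tested. Of the 27 genes 6 were higher and 10 lower, and 11 did not pass, and the median log2 fold change was -0.28, as it was for all genes tested. The share that passed was near the 53.8% of all genes. Leaving out deletion array 2 gave 11 higher and 14 lower, where 93.6% of all genes passed, and leaving out wild-type array 2 gave 6 higher and 4 lower, where 28.1% did.

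Of 9 genes of pyrimidine salvage and uptake, 2 rose and 4 fell (median -0.35), where 19.2% of all genes tested rose and 34.6% fell. URH1, which encodes a uridine nucleosidase, read 2.42, 1.88 and 2.41 on the deletion arrays and -1.35, -1.32 and -1.31 on the wild-type arrays. It rose 11.1-fold (3.47 ± 0.22, adjusted p = 0.00265, limma), more than 99.7% of all genes tested. FCY21, a relative of the cytosine permease gene, rose 7.55-fold (2.92 ± 0.11, adjusted p = 0.00226, limma). Of the 4 genes that fell, FUR1, whose product attaches uracil to ribose phosphate, read -4.49, -4.76 and -4.45 in the deletion strain and -2.59, -2.61 and -2.62 in wild type. The log2 fold changes were -2.01 ± 0.16 for FUR1, -0.93 ± 0.14 for the uridine permease gene FUI1 and -1.35 ± 0.15 for the uridine kinase gene URK1 (adjusted p = 0.0034, 0.0107 and 0.00545, limma). The falls of FUR1 and URK1 were smaller with quantile normalization, at -1.15 and -0.66, and still passed (adjusted p = 0.00473 and 0.013, limma). FUI1 did not pass without wild-type array 2 (adjusted p = 0.105). FCY2, the purine and cytosine permease gene, fell too (-0.95, adjusted p = 0.0334), but not with median centring (-0.64, adjusted p = 0.0676), nor when wild-type array 2 was left out (adjusted p = 0.105). The deaminase genes CDD1 (0.57) and FCY1 (0.85) did not pass (adjusted p = 0.0653 and 0.0983), nor did FCY22 (-0.35, adjusted p = 0.12). With median centring CDD1 and FCY1 passed as higher (adjusted p = 0.0331 and 0.0367). With quantile normalization CDD1 passed as higher too (adjusted p = 0.0336), and FCY22 turned to 0.65 and passed (adjusted p = 0.0279).

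Both nucleotidase genes on the list rose, where 19.2% of all genes tested rose. SDT1, whose product removes phosphate from pyrimidine nucleotides, read 1.17, 1.54 and 1.18 in the deletion strain and -0.91, -0.99 and -0.93 in wild type. PHM8 read 4.13, 3.70 and 4.005 in the deletion strain and 1.82, 1.83 and 1.81 in wild type. Their rises were 2.31 ± 0.17 and 2.06 ± 0.17 (adjusted p = 0.00319 and 0.00353, limma).

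Among 9 genes of nucleotide phosphorylation, ribonucleotide reduction and dTTP synthesis none rose and 4 fell (median -0.53), where 34.6% of all genes fell. The thymidylate synthase gene CDC21 had a log2 fold change of -2.02 ± 0.31 and the dCMP deaminase gene DCD1 one of -1.60 ± 0.14 (adjusted p = 0.0105 and 0.0039, limma). CDC21 was dim on the deletion arrays (-6.18, -6.93 and -6.21). Its log2 fold change was -1.17 with quantile normalization (adjusted p = 0.0497, limma) and -1.06 with normexp background correction. Those of DCD1 were -0.70 and -1.19 under the same settings. RNR1 and RNR3, genes of the large ribonucleotide reductase subunit, had -0.87 and -1.01 (adjusted p = 0.0157 and 0.00609), and neither passed without wild-type array 2 (adjusted p = 0.229 and 0.134). RNR1 did not pass with quantile normalization either (-0.14, adjusted p = 0.351). The small-subunit genes RNR2 (-0.11) and RNR4 (-0.53), the dUTPase gene DUT1 (0.05) and the thymidylate kinase gene CDC8 (-0.28) did not pass. With quantile normalization DUT1 passed as higher (0.58, adjusted p = 0.0208) and RNR4 as lower (-0.55, adjusted p = 0.0472). YNK1, the nucleoside diphosphate kinase gene, read 3.56, 2.16 and 3.48 on the deletion arrays and 2.90, 2.93 and 2.93 on the wild-type arrays. Deletion arrays 1 and 3 were thus above wild type and array 2 below it. The fitted value was -0.09 ± 0.50, and 0.59 without array 2.

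Phosphoribosyl pyrophosphate, which URA5, URA10 and FUR1 enzymes consume, is made by the products of PRS1 to PRS5. PRS4 rose (1.40 ± 0.10, adjusted p = 0.00319, limma). PRS1 and PRS3 fell (-0.72 and -0.79, adjusted p = 0.0192 and 0.00915), but did not pass without wild-type array 2 (adjusted p = 0.226 and 0.203), and PRS1 did not pass with median centring (-0.41, adjusted p = 0.0627). PRS2 (0.12) and PRS5 (0.03) did not pass. CPA1, a gene of arginine synthesis, stood at -0.41 and did not pass (adjusted p = 0.0656, limma).

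PPR1, the gene of the pathway's activator, read -1.37, -1.45 and -1.38 on the deletion arrays and -3.22, -3.21 and -3.27 on the wild-type arrays. It rose 3.52-fold (1.81 ± 0.12, adjusted p = 0.00288, limma), with array 2 close to its companions. Of the 4 genes that Ppr1 is known to activate, URA3, URA4 and URA10 rose and URA1 fell. Among all genes tested 19.2% rose and 34.6% fell. URA4 lost its call under the settings given above, and what produced the URA3 signal was not tested. Whether PPR1 bears on any of these changes was not tested.

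**Figure D4:**
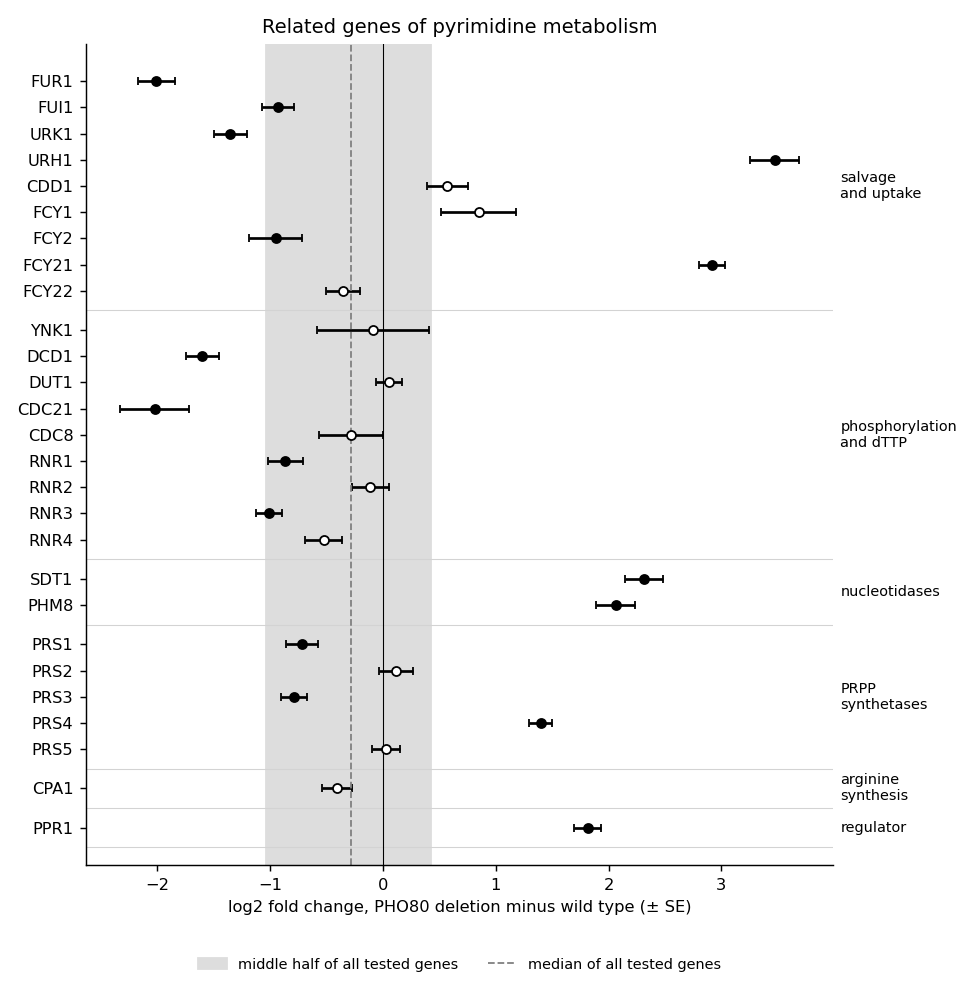
Log2 fold change, PHO80 deletion minus wild type, with its SE (limma, 2 samples per strain) for 27 genes related to pyrimidine metabolism in 6 lists; filled points passed at an adjusted p of 0.05 and open points did not. The grey band and dashed line mark the 25th to 75th percentile and the median of all genes tested. URH1 (3.47) and FCY21 (2.92) lie farthest to the right, and CDC21 (-2.02) and FUR1 (-2.01) farthest to the left.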

How the data were processed

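Total RNA of 3 PHO80 deletion and 3 wild-type samples was measured on 1-colour Agilent arrays, per the labels' protocols. The deposited values are linear spot intensity that the authors made with Agilent Feature Extraction 10.1.1.1, per the file headers and the submitters' processing notes. Background was subtracted within each array, and arrays were not scaled to each other. Control and outlier spots were left out (1.12% to 1.88% of probe spots). Log2 processed signals were scaled to the 75th percentile and averaged per probe. A probe was well above background where over 0.5 of its spots were, and 5863 of 6256 probes were so on at least 3 arrays and entered the test. RefSeq R64 gave symbols by locus tag (5756 matched). The sources name no build for the array, so coordinates are left out, and no sequence was used. The strains, with 2 samples each, were fitted in limma 3.58.1 under R 4.3.3 (lmFit, then eBayes with trend), and p-values were Benjamini-Hochberg adjusted over all probes tested. The fit was also run on simulated data, whose outcome is not given here and is not used in reading the p-values. The few arrays limit the precision.

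The 10 genes, the related lists and the averaging of arrays were chosen with earlier results of these data known. Named genes are the 10 genes, PHO80, XKS1, the other BY4741 markers, the neighbours of URA3, its 5 nearest probes and the related lists. A further gene of those lists is not reported here. The alternatives changed scaling, background, the dim-probe filter, which arrays count as samples, the variance trend, the replicate block, the source of values (the authors' table) and each array in turn. That table's intensity values, deposited by the authors, were linear and uncentred and ran the same way as the scanner files (Pearson r of log2 values 0.997 to 0.999, median ratio 0.995 to 0.999). Nothing used here says how it combined spots. Its columns had medians of 1120, 746.5 and 1670 in the deletion strain and 1120, 1140 and 950.5 in wild type. Figures were drawn with matplotlib 3.10.9.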

Additional observations from a re-analysis of the deposited data

How the results depend on the processing

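Every one of the 10 pyrimidine genes kept its direction under each of 16 alternatives. URA1, URA2, URA3, URA5, URA6, URA8, URA10 and FUR4 also kept their calls, and URA3 ran from 1.61 to 2.33. URA4 and URA7 lost theirs under the settings given above, so that 5 rather than 6 genes were higher without wild-type array 2 or with wild type as 1 sample, and 3 rather than 4 lower with quantile normalization. PHO80 ran from -7.04 to -3.01, the last with normexp background correction, and was not tested among probes above background on all arrays. The median of all genes was -0.28, and 0.03 with median centring and with quantile normalization, and the share of calls that were higher was then 51.3% and 52.8%, beside 35.6%. Over all genes 1123 were higher and 2029 lower, against 519 and 1130 with wild type as 1 sample, and leaving out 1 array gave 523 (wild-type array 2) to 2200 (deletion array 2) higher and 1122 to 3289 lower. A fit with a lone sample in 1 strain borrows its spread from the other, so the adjusted p without deletion array 2 rests on wild-type arrays near spot noise. Without wild-type array 2, or with wild type as 1 sample, it rests on the deletion arrays, and these 2 settings are nearly the same fit. Of the 27 related genes 4 were lower with wild type as 1 sample, and leaving out 1 array gave 4 to 14 lower and 6 to 11 higher.

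Deviations of same-numbered arrays correlated at -0.21, -0.17 and -0.01, and no array correlated best with the array of its own number. Values this weak over 3 arrays per strain do not settle whether the replicate numbers pair the samples. Same-numbered arrays also held the same position on their slides, so a replicate block is a block of position too. With 6 separate arrays and a replicate block 1485 genes were higher and 2486 lower, URA3 rose by 2.09 (adjusted p = 0.0012, limma), and the pyrimidine counts stayed at 6 and 4; without the block 1596 were higher and 2629 lower. Among the genes that did not pass, signs turned as follows. Median centring gave YNK1 0.22, CDC8 0.024, RNR2 0.20 and GEA2 0.11. Quantile normalization gave FCY22 0.65 and GEA2 0.42. With 6 separate arrays, with or without the block, YNK1 was 0.14 and PRS5 -0.011. Leaving out 1 array gave a range of -0.106 to 0.594 for YNK1, -0.299 to 0.0828 for CDC8 and -0.0561 to 0.0441 for PRS5, with YNK1 and CDC8 above 0 only without deletion array 2 and PRS5 below 0 only without that array or wild-type array 2 (-0.0049). The cause of these turns was not tested. A slide block could not be fitted because each slide held 1 strain. Normexp used the median spot signal.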
